A study of Mus musculus with 6 samples.

Results

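The 5 subunit genes of the muscle nicotinic acetylcholine receptor, Chrna1, Chrnb1, Chrnd, Chrne and Chrng, were examined in RNAseq of mouse gastrocnemius, the large muscle of the calf. They are 5 of the 23997 gene symbols listed, and all 5 were among the 13359 genes that passed a filter of a mean of 0.5 FPKM over the 6 libraries. The genes were chosen by earlier results of the same contrast, HrasG12V against wild type (WT), so their genotype values are a description and carry no test. FPKM is the number of fragments per kilobase of transcript, scaled to the mapped fragments of the library, so levels of different subunits can be set side by side per length.

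The HrasG12V group held mice 2276, 2278 and 2279, heterozygous for the activating G12V change in Hras (genotype HrasG12V/+, strain label Caggs-Cre+/HrasG12V/+). The WT group held mice 2277, 2280 and 2281, whose genotype is given as Hras+/+ and whose strain label is Caggs-Cre-/HrasflG12V/+. The WT mice therefore carried the floxed G12V allele without Cre, and the presence of the Cre transgene and of the recombined allele cannot be told apart in this comparison. All 6 mice were untreated and 21 days old, with 1 library per mouse, and the methods describe the WT mice as littermates. The Cre transgene is driven by the CAG promoter and acts throughout the body, so the mutant allele was not limited to muscle fibers. The labels give no sex or litter of the mice, and the p-values below measure only the spread between these mice.

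The muscle receptor is a ring of 5 subunits that opens when acetylcholine released by the motor nerve binds, and it is packed densely in the fiber membrane at the neuromuscular junction. The fetal receptor holds 2 alpha subunits with a beta, a delta and a gamma subunit. After birth epsilon replaces gamma, as the nuclei under the synapse switch on Chrne and the fiber as a whole switches off Chrng. When a muscle loses its nerve, Chrng and other subunit genes are transcribed again along the fiber. E-boxes, which bind MyoD family factors, drive the subunit genes in muscle, and an N-box, which binds ETS factors such as GABP, drives Chrne in the nuclei under the synapse.

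The stretch before the RefSeq transcription start is shown for the 4 subunit genes that have a RefSeq window on GRCm38.p6, to set the E-boxes and the N-box beside the values of the adult and the fetal subunit genes. Each run reads 5′ to 3′ on the strand of the gene, begins at most 250 bases before that start and was shortened where it met an exon of the gene or, for Chrnb1, an exon of Fgf11. The Chrng window lies before the RefSeq start but in the first intron of a GENCODE transcript, 904 bases after its start at 87204657, which sets the span given for the gene below, and the stretch before that other start was not searched. Capitals mark the E-box letters CANNTG and the N-box letters CCGGAA, both searched on both strands.
Chrna1, chr2:73580339-73580588, minus strand: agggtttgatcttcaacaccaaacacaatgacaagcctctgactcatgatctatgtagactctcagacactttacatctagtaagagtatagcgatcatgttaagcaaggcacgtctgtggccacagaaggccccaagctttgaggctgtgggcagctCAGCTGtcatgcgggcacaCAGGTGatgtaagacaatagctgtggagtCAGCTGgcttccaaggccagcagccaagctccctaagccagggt
Chrnb1, chr11:69795967-69796067, minus strand: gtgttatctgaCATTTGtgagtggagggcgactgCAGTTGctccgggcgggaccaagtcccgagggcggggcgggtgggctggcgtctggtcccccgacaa
Chrne, chr11:70619217-70619444, minus strand: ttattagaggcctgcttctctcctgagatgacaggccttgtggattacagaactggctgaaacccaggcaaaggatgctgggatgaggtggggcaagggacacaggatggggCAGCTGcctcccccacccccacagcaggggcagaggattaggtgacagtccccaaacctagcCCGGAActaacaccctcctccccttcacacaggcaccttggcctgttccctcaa
Chrng, chr1:87205561-87205809, plus strand: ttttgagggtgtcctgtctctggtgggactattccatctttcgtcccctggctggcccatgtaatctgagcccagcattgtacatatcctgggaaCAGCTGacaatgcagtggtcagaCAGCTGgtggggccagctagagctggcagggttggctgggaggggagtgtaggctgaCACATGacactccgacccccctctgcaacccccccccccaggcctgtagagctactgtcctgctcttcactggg
The Chrna1 window held 3 E-box matches, of which 2 read CAGCTG, and the Chrng window also held 3, of which 2 read CAGCTG. The Chrnb1 window held 2 E-box matches and neither read CAGCTG. The Chrne window held 1 E-box match, which read CAGCTG, and was the only window of the 4 with an N-box match, whose first base lay 54 bases before the end of the window. Over 32851 windows of 250 bases before the starts of all genes, 66.2% held at least 1 CANNTG, 31.8% at least 2 and 12.2% at least 3. At least 1 CAGCTG was in 13.0% of these windows, at least 2 in 1.26%, and CCGGAA in 12%. The 4 windows shown hold 101 to 250 bases, so most are shorter than those counted, and a match is only a run of letters.

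FPKM totals ran from 413020 to 814013, highest in HrasG12V mouse 2276, while the library medians over tested genes lay between 6.39 and 6.64. The methods state only a nominal depth for all samples and no read counts were used here, so the number of fragments behind each FPKM is unknown. Of 10 markers of skeletal muscle fibers, Myh4 and Acta1 were listed at 0 in all 6 libraries, Ckm in 5, Myh1 in WT mice 2277 and 2280 and Tnnt3 in mouse 2276, although fast muscle uses these genes, so a 0 in these values can be a failed estimate. Mylpf, a light chain of fast fibers, was at 10760 to 36114 FPKM, Des at 635 to 1804 and Ttn at 151 to 239, so fiber transcripts were abundant in every library. None of the 5 subunit genes was listed at 0 in any library. In whole muscle, fewer cells of a type and less RNA per cell cannot be told apart.

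The adult receptor's epsilon subunit and its alpha subunit were both higher in HrasG12V muscle compared to WT, while the fetal gamma subunit was not. Chrne (ENSMUSG00000014609, chromosome 11 from 70614883 to 70619216 on the minus strand of GRCm38, GENCODE vM21) encodes epsilon, found only in the adult receptor. WT mice 2277, 2280 and 2281 had 13.4, 12.9 and 12.4 FPKM of it, and HrasG12V mice 2276, 2278 and 2279 had 219, 97.1 and 109 FPKM. The lowest HrasG12V mouse was far above the highest WT mouse, and mouse 2276 was the highest by a wide margin. The means were 142 ± 67.4 FPKM (SD, n = 3) in HrasG12V and 12.9 ± 0.516 FPKM (SD, n = 3) in WT, a ratio of 11.0 and a log2 fold change of 3.35 (standard error 0.33) on the log2(FPKM + 0.1) scale. Set against the WT mean, the 3 HrasG12V mice stood at 17, 7.53 and 8.49 times its level.

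Chrna1 (ENSMUSG00000027107, chromosome 2 from 73563215 to 73580338, minus strand) encodes the alpha subunit, which carries most of the acetylcholine binding site and is part of both the fetal and the adult receptor. It was at 8.70, 11.1 and 11.0 FPKM in the WT mice, in the order given above, and at 82.3, 54.5 and 83.4 FPKM in the HrasG12V mice. Here mice 2276 and 2279 were almost level and mouse 2278 was lowest, and the genotypes did not overlap. The means were 73.4 ± 16.4 FPKM (SD, n = 3) and 10.3 ± 1.37 FPKM (SD, n = 3), a ratio of 7.14 and a log2 fold change of 2.81 (standard error 0.23). By log2 fold change Chrne ranked 103 and Chrna1 ranked 181 from the top of the 13359 genes tested.

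**Figure D1:**
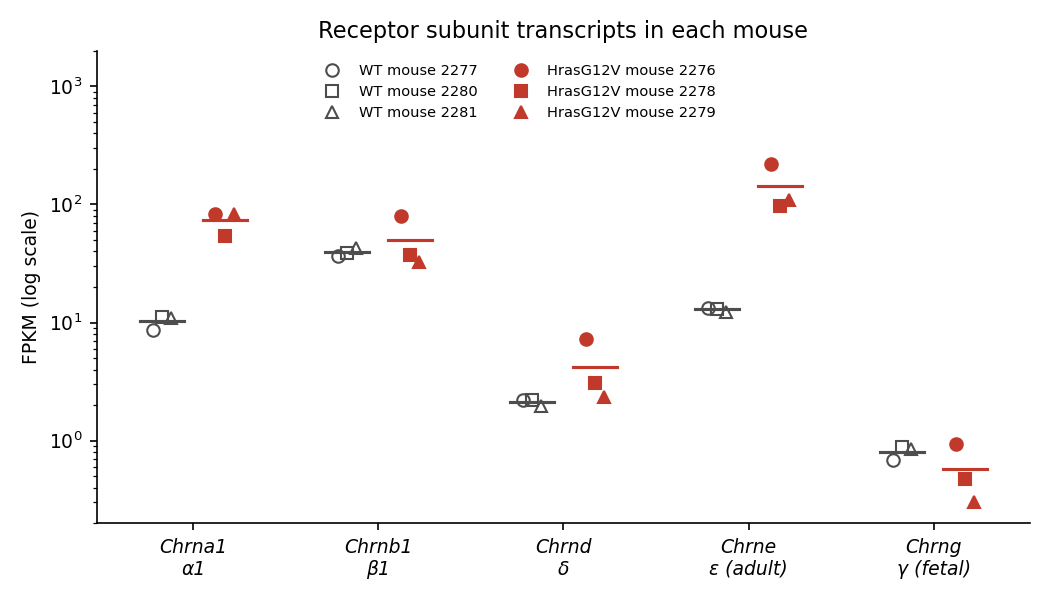
FPKM (log axis) of the 5 subunit transcripts in each of 3 WT mice (open grey) and 3 HrasG12V mice (filled red), with a line at each group's mean. Chrna1 and Chrne lie far apart between genotypes, Chrnd lies apart by a small gap, and Chrnb1 and Chrng overlap.

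The fetal subunit did not share this difference. Chrng (ENSMUSG00000026253, chromosome 1 from 87204657 to 87212694, plus strand) was at 0.688, 0.881 and 0.854 FPKM in WT mice and at 0.931, 0.477 and 0.303 FPKM in HrasG12V mice 2276, 2278 and 2279. Mouse 2276 was just above all WT mice and the other two HrasG12V mice were below all of them. The means were 0.570 ± 0.324 FPKM (SD, n = 3) in HrasG12V and 0.807 ± 0.104 FPKM (SD, n = 3) in WT, and the log2 fold change was -0.54 (standard error 0.44). Chrng lies 4587 bases from Chrnd on the same strand, and mice 2278 and 2279, which were above WT for Chrnd, were below it for Chrng.

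Chrnd (ENSMUSG00000026251, chromosome 1 from 87190607 to 87200070, plus strand) encodes delta, which together with alpha forms one of the 2 binding sites in both receptors. It was at 2.19, 2.23 and 1.95 FPKM in WT mice and at 7.31, 3.07 and 2.32 FPKM in HrasG12V mice. All 3 HrasG12V mice were above all WT mice, but mouse 2279 exceeded the highest WT mouse by only a few percent and most of the difference in means came from mouse 2276. The means were 4.24 ± 2.69 FPKM (SD, n = 3) and 2.12 ± 0.148 FPKM (SD, n = 3), a ratio of 2.00 and a log2 fold change of 0.79 (standard error 0.40).

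Chrnb1 (ENSMUSG00000041189, chromosome 11 from 69784036 to 69795943, minus strand) encodes beta, whose phosphorylation downstream of MuSK helps to anchor the receptor. It was at 36.8, 39.0 and 42.4 FPKM in WT mice and at 79.8, 37.6 and 32.8 FPKM in HrasG12V mice. Mouse 2276 was at 2.03 times the WT mean and the other two at 0.955 and 0.833 times. The means were 50.1 ± 25.9 FPKM (SD, n = 3) and 39.4 ± 2.82 FPKM (SD, n = 3), with a log2 fold change of 0.23 (standard error 0.35) whose sign was that of mouse 2276 alone and which was -0.16 without it.

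Mouse 2276 had the highest FPKM of the 3 HrasG12V mice for Chrnb1, Chrnd, Chrne and Chrng, and for Chrna1 it was second to mouse 2279. Its median log2 difference from the WT means over all genes tested was small, since these medians lay between -0.08 and 0.04 in all 6 libraries. Leaving this mouse out, Chrna1, Chrnd and Chrne stayed above all WT mice, Chrng was below all of them at 0.303 and 0.477 FPKM, and Chrnb1 still overlapped. Leaving out any other mouse, the same 3 subunit genes stayed above and Chrnb1 and Chrng overlapped.

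**Figure D2:**
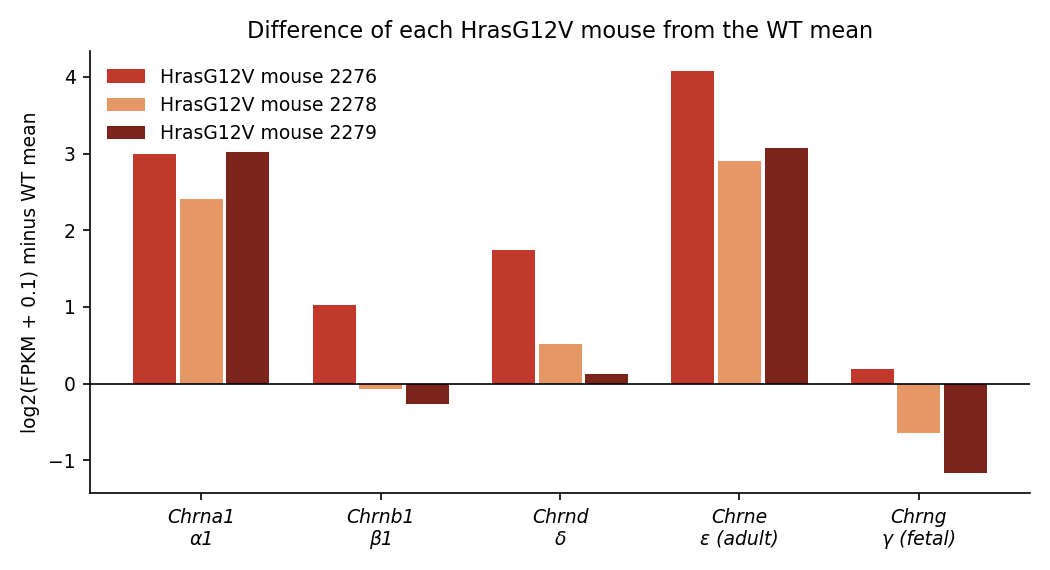
Difference of log2(FPKM + 0.1) in each of the 3 HrasG12V mice from the mean of the 3 WT mice, for the 5 subunit transcripts, with bars drawn from 0. Chrna1 and Chrne are far above 0 in all 3 mice, and for Chrnb1 and Chrng mouse 2276 (red) lies on the other side of 0 from mice 2278 and 2279.

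Of the 5 subunit genes, 2 (Chrna1 and Chrne) had an unadjusted limma p below 0.05 in the higher direction, against 5.18% of all genes tested, and none in the lower direction, against 4.99%. The same 2 had an adjusted p below 0.05, as did 0.0599% of all genes. All HrasG12V mice were above all WT mice for 3 of the 5, against 8.11% of all genes, and below them for none, against 10.4%. These counts follow from how the genes were chosen. Without WT mouse 2277, 2280 or 2281 or HrasG12V mouse 2279, no subunit gene had an adjusted p below 0.05, without mouse 2278 there was 1, and without mouse 2276 there were 2. Of all 13359 genes tested, 7 to 14 passed that limit in the first 4 of these fits, 12 without mouse 2278 and 1291 without mouse 2276.

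The order of the subunit levels differed between genotypes. In each WT mouse Chrnb1 was highest, followed by Chrne, Chrna1, Chrnd and Chrng, and no neighbours in that order overlapped over the 3 mice. In each HrasG12V mouse Chrne was highest, followed by Chrna1, Chrnb1, Chrnd and Chrng. There the ranges of Chrna1 (54.5 to 83.4 FPKM) and Chrnb1 (32.8 to 79.8 FPKM) overlapped, although Chrna1 was above Chrnb1 within each mouse, and those of the other neighbours did not overlap.

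The sum of the 5 transcripts was 61.7, 66.1 and 68.6 FPKM in WT mice and 390 FPKM, 193 and 228 FPKM in HrasG12V mice 2276, 2278 and 2279. Chrnb1 made up 60.1% ± 1.49 (SD, n = 3) of it in WT and 18.1% ± 3.29 (SD, n = 3) in HrasG12V muscle. Chrne made up 19.8% ± 1.84 (SD, n = 3) and 51.5% ± 4.29 (SD, n = 3), and Chrna1 15.7% ± 1.41 (SD, n = 3) and 28.6% ± 7.72 (SD, n = 3). Thus beta led the sum in every WT mouse and epsilon led it in every HrasG12V mouse. Chrnd made up 3.25% ± 0.361 (SD, n = 3) and 1.5% ± 0.439 (SD, n = 3), a lower share although its level was higher. Chrng was 1.11% to 1.33% of the sum in WT and 0.133% to 0.247% in HrasG12V mice. Shares within a sum show unequal change only.

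**Figure D3:**
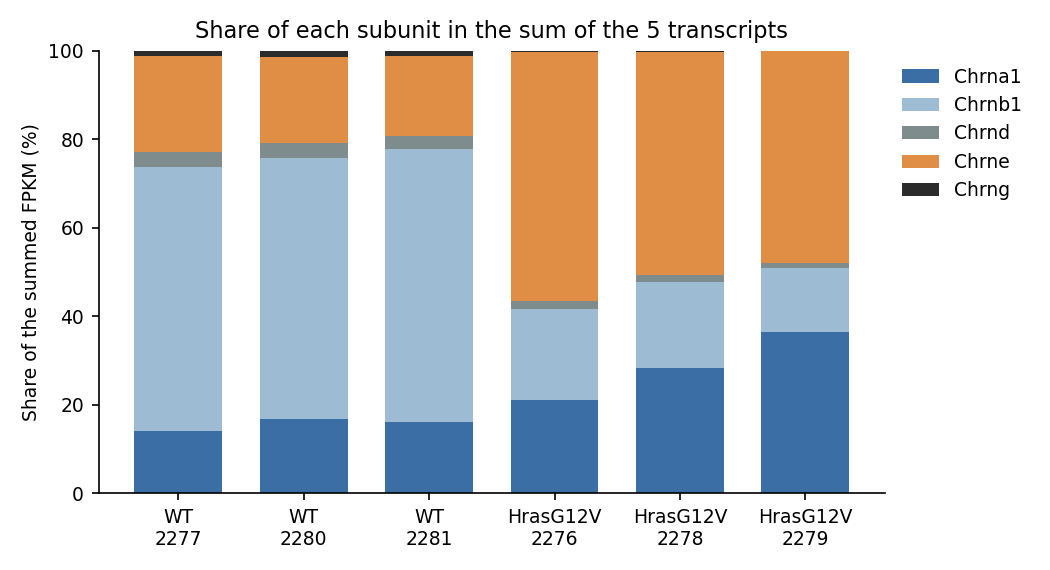
Share (%) of each subunit in the summed FPKM of the 5 transcripts, 1 bar per mouse. Chrne (orange) takes 18.0% to 21.7% in WT and 47.9% to 56.3% in HrasG12V mice, and Chrnb1 (light blue) 59.0% to 61.8% and 14.4% to 20.5%.

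The ratio of the adult to the fetal subunit, Chrne to Chrng, was 19.5, 14.7 and 14.5 in WT mice 2277, 2280 and 2281, whereas HrasG12V mice 2276, 2278 and 2279 had ratios of 236, 204 and 362. All 3 HrasG12V ratios were thus more than 10 times the highest WT ratio, and mouse 2276, whose 2 transcripts were both highest, did not stand apart from the others. Chrng was low, at 0.303 to 0.931 FPKM over all mice, so small differences in it move the ratio. The log2 fold changes of Chrne (3.35) and Chrng (-0.54) differed by 3.89, most of it from Chrne. The difference was 3.72 to 4.07 with 1 mouse left out, 3.49 with a pseudocount of 1 and 4.61 with quantile normalization. The ratio of Chrna1 to Chrnb1 was 0.237 to 0.285 in WT and 1.03 to 2.54 in HrasG12V mice, and that of Chrne to Chrnd was 5.80 to 6.33 and 30.0 to 47.2. By contrast, Chrne to Chrna1 was 1.12 to 1.54 in WT and 1.31 to 2.67 in HrasG12V mice, so these ranges overlapped.

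Genes beside the subunit genes were compared next, since reads of overlapping genes can be shared. One annotated gene, 4930544D05Rik (ENSMUSG00000087279, chromosome 11 from 70615848 to 70616890, plus strand), lies wholly within 1 intron of Chrne (70615776 to 70616954) on the opposite strand, and its 863 exonic bases share 0 with the 1690 of Chrne. It was at 3.77, 3.69 and 3.88 FPKM in WT mice and at 74.3, 29.5 and 38.7 FPKM in HrasG12V mice 2276, 2278 and 2279. It rose with a log2 fold change of 3.50 (SE 0.33, limma adjusted p = 0.0440) and was 1 of the 8 genes in all that passed the adjusted test. The adjusted p was 0.207 to 0.382 without WT mouse 2277, 2280 or 2281 or mouse 2279, and 0.0671 without mouse 2278. In limma fits with a pseudocount of 1, no filter or median centring it was 0.0748, 0.0952 and 0.0573. Chrne was 3.19 to 3.55 times as high in WT and 2.83 to 3.30 times as high in HrasG12V mice, so the ratio of the pair ran within narrow limits while both means differed more than 10-fold. The library kit was stranded, but whether counting used the strand is not given in the sources used here, and reads from the intron of Chrne and from 4930544D05Rik cannot then be told apart.

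None of the other tested neighbours passed the adjusted test. Mink1, a kinase gene 400 bases from Chrne, stood at a log2 fold change of 0.05 (SE 0.13, limma adjusted p = 0.931), and Gp1ba, a platelet receptor gene on the other side, -0.52 (limma adjusted p = 0.537). Zbtb4 and Fgf11, 13 and 125 bases from Chrnb1, had -0.21 and -0.15 (limma adjusted p = 0.683 and 0.895). Eif4e2, 1220 bases from Chrng, had -0.13 (limma adjusted p = 0.884), and Wipf1, the nearest tested gene to Chrna1, -0.16 (limma adjusted p = 0.934). Prss56 beside Chrnd and Chn1os3 beside Chrna1 were below the filter. The annotated genes Chrna1os and Gm12315 lie nearer to Chrna1 and to Chrne than the neighbours named on that side but are not among the symbols listed, so they have no value here.

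The genes whose pattern over the 6 mice was most like Chrne, Chrna1 and Chrng were ranked by Pearson's r of log2(FPKM + 0.1) among genes with a mean of at least 1 FPKM. These r are descriptions over 6 points that share the genotype groups. For Chrne, among 12177 genes, they were 4930544D05Rik (0.999), Etv5 (0.996), Gimap6 (0.995), Idnk (0.993) and Kctd13 (0.988). Chrna1 was 18th from the top for Chrne (r = 0.980), while Chrnd (0.770), Chrnb1 (0.463) and Chrng (-0.39) were less like it. For Chrna1 the genes were Maged2 (0.997), 2610002J02Rik (0.995), Ddx27 (0.992), Dek (0.991) and Socs1 (0.990). For Chrng, among 12178 genes, they were Dcakd (0.995), Ttl (0.989), Lyrm7 (0.985), 2310057M21Rik (0.985) and Defb25 (0.984).

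**Figure D4:**
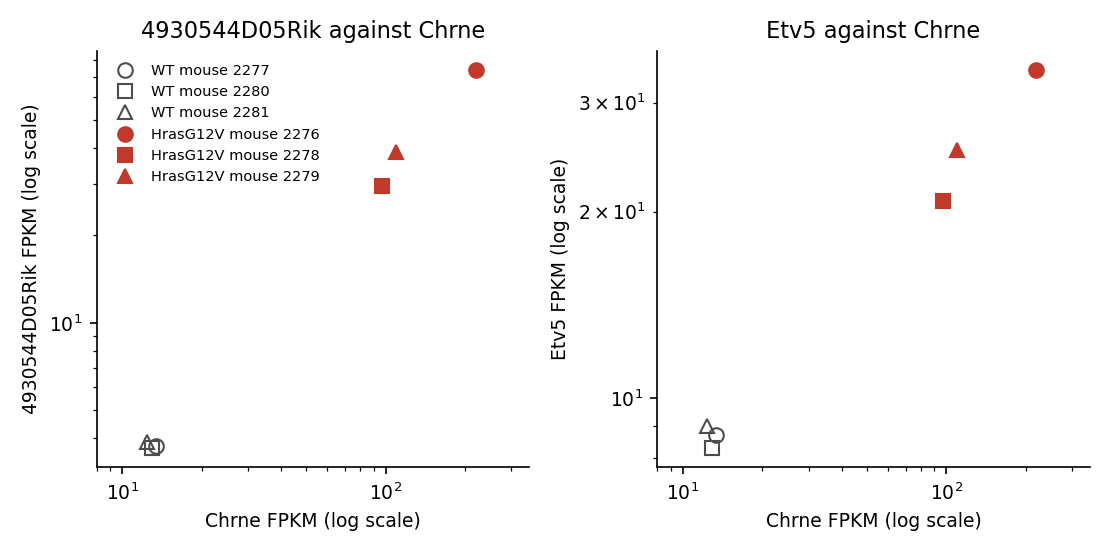
FPKM of 4930544D05Rik (left) and Etv5 (right) against that of Chrne in each mouse, on log axes, with WT mice as open grey and HrasG12V mice as filled red points. The WT mice lie together at 3.69 to 3.88 FPKM of 4930544D05Rik and 8.28 to 9.0 FPKM of Etv5, and in the HrasG12V mice both genes follow the order of Chrne, with 2276 highest, 2279 next and 2278 lowest. Both genes are drawn because their Pearson's r with Chrne over these same mice was highest, so the shared order follows from that choice.

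The other genes of the pathway were taken from 6 lists, those of neuronal nicotinic subunits, clustering and folding partners, the synaptic cleft, E-box factors, neuregulin signalling and ETS factors, and nuclei under the synapse, which together held 83 genes, of which 67 passed the filter. Of these, 9 were higher and 3 lower in HrasG12V muscle at an unadjusted limma p below 0.05, against 5.18% and 4.99% of all genes, and none passed the adjusted test. The median log2 fold change of the 67 was -0.04, beside -0.03 over all genes tested, and 30 of the 67 were above 0. Thus 12 of the 67 passed the unadjusted limit. All gene lists, here and below, were chosen with earlier results of these data known. Their counts beside the shares of all genes are therefore a description. Without mouse 2276 the counts were 23 at the unadjusted and 5 at the adjusted limit (Ache, Colq, Dok7, Etv5 and Id2), without WT mouse 2281 they were 7 and 0, and with libraries rescaled to the same total FPKM they were also 7 and 0. Of all 13359 genes tested, 3979 and 1291 passed these limits without mouse 2276. The counts over all genes were 606 and 14 without WT mouse 2281, and 712 and 7 with the same total.

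ETS factors and neuregulin signalling carry the nerve's signal to the N-box, and 8 of 11 listed genes were tested. Etv5, an ETS factor of the nuclei under the synapse, was at 8.72, 8.28 and 9.0 FPKM in WT mice and at 33.9, 20.8 and 25.2 FPKM in HrasG12V mice. No HrasG12V mouse was near the WT range, yet the log2 fold change of 1.58 (standard error 0.21) did not pass the adjusted test (limma adjusted p = 0.198, but 0.0185 with quantile normalization, 0.0124 with array weights, and over all alternatives from 0.00530 without mouse 2276 to 0.934 without WT mouse 2277). It was the only 1 of the 8 with an unadjusted p below 0.05 (5.18% of all genes higher and 4.99% lower). Gabpa, the DNA-binding part of GABP, was lowest in the list with a log2 fold change of -0.41 (limma adjusted p = 0.576). The receptor genes Erbb2 and Erbb3 were at 1.47 to 1.91 and 1.03 to 2.63 FPKM over all mice, and Nrg1, Nrg2 and Erbb4 were below the filter.

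Among 13 genes for the breakdown of acetylcholine and the matrix of the cleft, all were tested, with 3 higher and 2 lower at the unadjusted limit (5.18% and 4.99% of all genes). Colq, the collagen tail that anchors acetylcholinesterase in the cleft, was at 6.59, 5.50 and 4.44 FPKM in WT mice and at 34.8, 15.9 and 18.8 FPKM in HrasG12V mice (log2 fold change 1.98, SE 0.32, limma adjusted p = 0.288, but 0.0130 without mouse 2276 and 0.0199 with array weights). Ache, the esterase itself, was at 20.4, 19.7 and 28.4 FPKM and at 91.2, 68.2 and 43.7 FPKM (log2 fold change 1.52, SE 0.31, limma adjusted p = 0.318, but 0.0489 without mouse 2276 and 0.0360 with array weights). Prima1, the membrane anchor of the enzyme, best known from brain, was lower, at 4.70, 6.91 and 11.7 FPKM in WT and 1.59, 1.31 and 3.06 FPKM in HrasG12V mice (log2 fold change -1.90, limma adjusted p = 0.349). None of the 3 overlapped between genotypes. The median of the list was -0.27.

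Receptor clustering and folding partners were read next. Of 19 listed genes 18 were tested, 2 were higher and none lower at the unadjusted limit (5.18% and 4.99% of all genes), and the median log2 fold change was -0.06. Musk, the kinase that agrin activates through Lrp4, was highest at 4.61, 5.94 and 3.20 FPKM in WT and 6.0, 9.83 and 13.7 FPKM in HrasG12V mice (log2 fold change 1.05, limma adjusted p = 0.448), with mouse 2276 barely above the WT range. Lrp4 was the other one, at 3.76 to 5.44 and 5.97 to 7.98 FPKM (log2 fold change 0.61, limma adjusted p = 0.433). Rapsn, the scaffold that holds receptors in clusters, was at 14.3 to 17.5 FPKM in WT and at 27.9, 9.62 and 13.1 FPKM in HrasG12V mice, an overlap with mouse 2276 highest as for Chrnb1. Dok7, an activator of MuSK, was lowest with a log2 fold change of -0.40 (limma adjusted p = 0.676, but 0.0437 without mouse 2276).

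The factors that bind E-boxes or oppose them came next. Of 20 listed genes 19 were tested, 2 were higher and none lower at the unadjusted limit (5.18% and 4.99% of all genes), with a median of -0.19. Myog, the MyoD family factor that denervation induces, was at 14.6, 20.2 and 21.0 FPKM in WT and at 31.9, 16.9 and 12.3 FPKM in HrasG12V mice (log2 fold change 0.03, limma adjusted p = 0.990), and Myod1 overlapped as well (-0.27, limma adjusted p = 0.795). Msc, a repressor that competes for E-boxes, was highest (1.31, limma adjusted p = 0.369) and Twist1 lowest (-0.49, limma adjusted p = 0.733). The second gene at the unadjusted limit, Id2, an inhibitor of E-box binding, was at 3.63 FPKM in mouse 2276, within the WT range of 2.77 to 4.02, and its limma adjusted p was 0.481, but 0.0226 without that mouse and 0.0474 with array weights.

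Genes of the nuclei under the synapse are in part shared with the lists above, and 5 of 11 tested genes were higher and 1 lower at the unadjusted limit (5.18% and 4.99% of all genes), with a median of 0.32. The 5 were Ufsp1 and, already counted in the lists above, Colq, Etv5, Ache and Musk. In the whole list, 6 of 11 tested genes were above the WT range in every HrasG12V mouse, against 8.11% of all genes. That list, too, was chosen with earlier results of these data known. Ufsp1, a protease of the UFM1 system, was at 17.5, 18.5 and 23.1 FPKM in WT and 90.9, 45.8 and 30.1 FPKM in HrasG12V mice (log2 fold change 1.35, limma adjusted p = 0.418). Gramd1b was lowest (-0.60, limma adjusted p = 0.487). Prkar1a, a regulatory subunit of protein kinase A at the junction, was the sixth gene above the WT range, at 125 to 142 against 105 to 112 FPKM (limma adjusted p = 0.627).

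Genes known to respond to denervation, when Chrng rises, were read next. Of 13 listed genes 10 were tested, and 3 were higher (Musk, Ncam1 and Sln) and none lower at the unadjusted limit (5.18% and 4.99% of all genes), with a median of 0.35. Ncam1, an adhesion molecule that spreads along denervated fibers, was at 4.17 to 5.70 FPKM in WT and 7.39 to 9.35 FPKM in HrasG12V mice (log2 fold change 0.77, SE 0.18, limma adjusted p = 0.355). Sln, the calcium pump regulator sarcolipin, was highest (1.90, limma adjusted p = 0.435) and Cdkn1a lowest (-0.32, limma adjusted p = 0.804). Myog, Gadd45a and Hdac4 overlapped between genotypes, as did Chrng.

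Fetal and neonatal muscle genes other than Chrng went in both directions. Of 15 listed genes 14 were tested, with 2 higher and 1 lower at the unadjusted limit (5.18% and 4.99% of all genes) and a median of 0.17. Embryonic myosin Myh3 was at 1.55 to 4.25 FPKM in WT and 2.64 to 7.0 FPKM in HrasG12V mice, and perinatal myosin Myh8 at 2.35 to 2.55 and 2.39 to 3.55 FPKM, so both overlapped. Myl4, an embryonic light chain, was higher at 7.58 to 13.4 against 4.15 to 5.27 FPKM (limma adjusted p = 0.390), and Tmem8c, the fusion protein myomaker, was lowest (-1.32, limma adjusted p = 0.382). Tnni1 had the highest log2 fold change (2.51, SE 1.47, limma adjusted p = 0.621), which rested on WT mouse 2281 at 2.61 FPKM against 114 and 115 in the other two WT mice. Of 15 adult fast fiber genes, 12 were tested, none passed the unadjusted limit in either direction, and the median was -0.03. Their extremes, Myh1 and Tnnt3, were listed at 0 in 2 WT mice and in mouse 2276, and Myh1 had a limma adjusted p of 0.00597 without WT mouse 2281, the only WT mouse in which it was above 0.

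**Figure D5:**
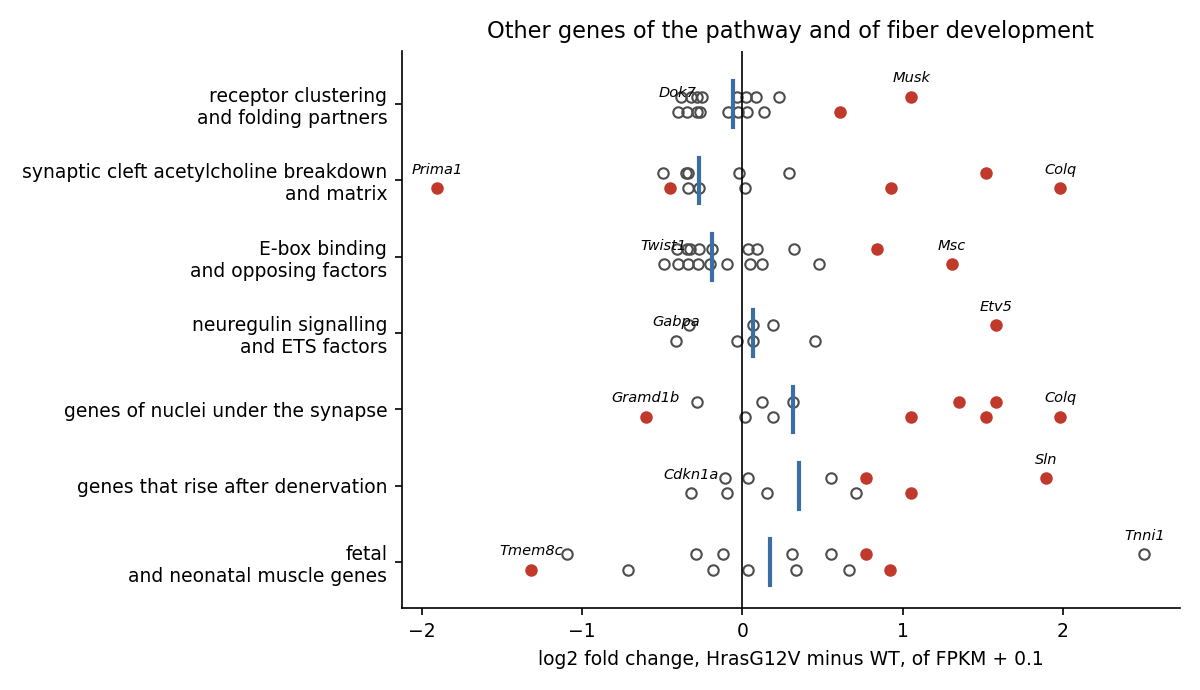
Log2 fold change (HrasG12V minus WT, of FPKM + 0.1) of each tested gene in 7 gene lists. Filled red points have an unadjusted limma p below 0.05, open grey points do not, the blue bar is the median of the list, and the highest and lowest gene of each list are named. The medians lie between -0.27 and 0.35, and most of the red points lie to the right of 0. Genes shared by lists are drawn in each of them, and among the red points these are Musk, Colq, Ache, Etv5 and Ncam1. Of all genes tested, 5.18% were higher and 4.99% lower at this limit.

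Other nicotinic receptor subunits, those of neurons, were low. Of 11 listed, 3 passed the filter, and none of these passed the unadjusted limit. Chrna9 had the highest log2 fold change (0.25, limma adjusted p = 0.930) and Chrna2 the lowest (-1.18, limma adjusted p = 0.664), and Chrna10 was at 3.64 to 4.37 FPKM in WT and 1.20 to 5.41 in HrasG12V mice. Chrna6 and Chrnb3 were listed at 0 in every library. The Chrna1 and Chrne transcripts were the highest nicotinic subunit transcripts in HrasG12V muscle.

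Markers of the other cells of the muscle were read beside these values, with higher and lower counts at the unadjusted limit that 5.18% and 4.99% of all genes tested passed. Motor axon markers were near the floor, with 1 of 10 above the filter (Prph, log2 fold change -0.84, limma adjusted p = 0.612), sums of 0.918 to 2.17 FPKM in WT and 0.791 to 1.34 FPKM in HrasG12V mice, and 2 of the 10, Slc18a3 among them, listed at 0 throughout. Schwann cell markers were higher in 4 of 10 at the unadjusted limit, with a median log2 fold change of 0.88 and sums of 93.0, 271 and 119 FPKM in WT and 138, 386 and 463 FPKM in HrasG12V mice 2276, 2278 and 2279. Their extremes were Mbp (1.25, limma adjusted p = 0.515) and Sox10 (0.43, limma adjusted p = 0.772).

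At the same limit (5.18% of all genes higher and 4.99% lower), satellite cell markers, those of the stem cells of muscle, were higher in 2 of 8, with sums of 59.2 to 63.0 FPKM in WT and 57.6 to 67.7 FPKM in HrasG12V mice, from Vcam1 (1.05, limma adjusted p = 0.481, but 0.00409 without mouse 2276 and 0.0145 with array weights) to Chodl (-0.46, limma adjusted p = 0.595). B and T cell markers were higher in 5 of 9, with sums of 1.31 to 1.81 FPKM in WT and of 2.13, 87.6 and 82.3 FPKM in mice 2276, 2278 and 2279, from Cd79a (4.13, limma adjusted p = 0.491) to Cd3d (2.39, limma adjusted p = 0.454). Without mouse 2276 Cd79a had a log2 fold change of 6.30 and a limma adjusted p of 0.00206, and Cd3d had 3.35 and 0.00466, and with array weights the adjusted p were 0.0147 and 0.0199. Tendon cell markers were lower in 5 of 6, with sums of 275 to 554 FPKM in WT and 98.6 to 209 FPKM in HrasG12V mice, from Scx (0.06, limma adjusted p = 0.981) to Kera (-2.22, limma adjusted p = 0.318). Adipocyte markers were higher in 1 of 6, with sums of 402 to 710 FPKM and 791 to 847 FPKM, from Retn (2.10, limma adjusted p = 0.439) to Lep (0.14, limma adjusted p = 0.981). Of 8 tested fiber markers, none was higher and 1, Cacna1s (-0.64, limma adjusted p = 0.481), was lower at the unadjusted limit, with a median of -0.21. The part of the shifts in Schwann, satellite, B and T, tendon and fat cell markers in the subunit values was not tested.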

How the data were processed

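RNA of gastrocnemius from 3 HrasG12V and 3 WT mice was made into stranded mRNA libraries, and the deposited values are FPKM, which the authors made with TopHat, Cufflinks and Cuffnorm. Cuffnorm scales the libraries to each other, and per the labels the builds are GRCm38 and mm10. The sources used here do not give tool versions, the annotation or the strand setting. Low values were checked for whole-read steps. In pairs of libraries the fullest log2 interval of 0.02 held 1.20% to 8.83% of the low genes, so no reads were recovered and precision is known only from the spread between mice.

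Genes with a mean of at least 0.5 FPKM were compared as log2(FPKM + 0.1) in limma 3.58.1 under R 4.3.3 (trended empirical Bayes, no covariate), adjusted by Benjamini-Hochberg over 13359 genes, with a limit of 0.05. The fold change understates that of low genes. The 5 subunit genes and all gene lists were chosen with earlier results of these data known. Named genes are the subunit genes, the tested gene with the highest and with the lowest log2 fold change in each list and any past the adjusted limit, annotated neighbours (GENCODE vM21), and the 5 genes most like Chrna1, Chrne and Chrng. All others were chosen after their values were seen. Of the B and T cell marker list, 1 gene is not reported here. Promoter windows came from RefSeq. Tried as alternatives were other pseudocounts (1 and 0.01), no filter, a filter of 1 FPKM, quantile normalization, the same total, median centring, array weights, robust moderation and leaving out each mouse. Work in Python 3.11.15 used pandas 2.3.3, numpy 2.4.6 and matplotlib 3.10.9.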

Additional observations from a re-analysis of the deposited data

How the results depend on the processing

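The log2 fold changes of Chrna1, Chrnd and Chrne kept their sign under all 15 alternatives, between 2.69 and 3.01, 0.32 and 1.13, and 2.99 and 3.58, and that of Chrng stayed below 0 under the 14 that kept it (a filter of 1 FPKM did not), at -1.24 with quantile normalization and -0.91 to -0.23 with 1 mouse left out. Chrnb1 turned to -0.0656 with array weights and ran from -0.16 to 0.48 with 1 mouse left out. Chrne minus Chrng was 3.49 with a pseudocount of 1, 4.61 with quantile normalization and 3.72 to 4.07 with 1 mouse left out. The number of subunit genes with an adjusted limma p below 0.05 fell from 2 to 1 with a pseudocount of 1, no filter, the same total or median centring, and was 0 to 2 with 1 mouse left out. These counts follow from how the genes were chosen and are no test of them. Over all genes, 8 passed the adjusted limit, 5 with a pseudocount of 1, 572 with array weights and 7 to 1291 with 1 mouse left out, while 1358 passed the unadjusted limit, 712 with the same total, 3042 with array weights and 606 to 3979 with 1 mouse left out. Of the pathway genes, 12 passed the unadjusted limit, 7 with the same total, 20 with array weights and 7 to 23 with 1 mouse left out, and none the adjusted limit, against 1 with quantile normalization, 4 with array weights and 0 to 5 with 1 mouse left out. The highest counts over all genes and over pathway genes came without mouse 2276, and the cause was not tested. Signs also turned for genes near 0. With array weights they were -0.30 for Chrna9, -0.23 for Scx and 0.31 for Wipf1, and with quantile normalization -0.0101 for Scx. With 1 mouse left out the ranges were -0.62 to 0.0285 for Cdkn1a, -0.37 to 0.67 for Chrna9, -0.33 to 0.033 for Eif4e2, -0.44 to 0.0557 for Fgf11, -0.68 to 1.03 for Lep, -0.34 to 0.35 for Scx and -0.48 to 0.35 for Wipf1. No paired analysis was possible, because the methods describe the WT mice as littermates but the labels give no litter. The fit therefore takes no account of litter. With 3 mice per genotype and no counts, the precision of a single FPKM is unknown.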
